A study of Mus musculus with 2 samples.

Results

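The 26S proteasome genes are described here as a module: the protein-coding genes of GENCODE release M21 whose symbols begin with Psma, Psmb, Psmc, Psmd, Psme, Psmf or Psmg. There were 50 such genes among 21951 protein-coding genes, and a gene was a member by its symbol alone, whatever its peaks. For each gene, EGR1 peaks were taken with their centre in the gene body or within 10 kb of an annotated transcription start site (TSS). By their products the genes fell into 19 core genes, 23 regulatory genes and 7 assembly genes, and Psmc3ip, whose product binds a proteasome ATPase and acts in meiotic recombination, was placed in no group.

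The peaks came from ChIP-seq of frontal cortex with an antibody against EGR1. The mice were 129SvEv/C57BL/6N F1 hybrid males aged 6 weeks, untreated as far as the labels say, and the tissue of several mice was pooled for each experiment. The 2 replicates were merged into 1 list of 12014 peaks, which gives for each peak its position on mm10 and its irreproducible discovery rate (IDR, low for peaks that rank high and alike in both replicates), with 2% as the authors' limit. The input DNA was not analysed here. The list holds neither read counts nor values of single replicates, so the depth behind a peak is unknown, no difference between samples could be computed, and the intervals given for shares are 95% Wilson intervals over genes or peaks. They treat genes as independent, although neighbours can share a peak, and they do not cover the error of the experiment. Frontal cortex holds neurons, glia and vascular cells, and the list does not tell in which of them a site was bound.

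The proteasome is the protease that degrades ubiquitin-tagged proteins. Its 20S core is a barrel of outer alpha rings, which gate the entry, and inner beta rings, some of whose subunits cut peptide bonds. The 19S regulator has a base with ATPases, which unfold substrates, and a lid, which removes ubiquitin. Activators and an inhibitor can bind the core in place of the 19S regulator, dedicated chaperones help to assemble both parts, and interferon-induced beta subunits can replace the constitutive catalytic ones. EGR1 is a zinc finger transcription factor that neurons induce with activity and that binds GC-rich DNA.

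The following sequences carry the main patterns and were read from mm10 on the strand of the gene (for the peak at Tap1, that of Psmb9). The first 3 are the only places where the long EGR1 motif, GCGTGGGCG or GCGGGGGCG on either strand, occurred in the peaks of proteasome genes, each with 10 bases to either side and the motif in capitals.
Psma7 (chr2:180042697-180042725, minus strand): tctccgcagaGCGGGGGCGgggacacggg
Psmc2 (chr5:21784229-21784257, plus strand): cggctgagtaGCGGGGGCGtggctttcaa
Psmb9 and Psmb8 (at Tap1) (chr17:34192964-34192992, minus strand): accgccgactGCGGGGGCGgggctcacct

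The next 5 are the parts of promoter peaks that lie outside every annotated exon. Capitals mark the short cores GTGGGCG or GGGGGCG, written as CGCCCAC or CGCCCCC where they lie on the opposite strand. Psma1 and Psmc4 show promoters with a low and a high IDR that both hold a short core. Psmg1 is the promoter with the lowest IDR of all, Psmd4 a promoter without any core, and Psmb10 the only beta subunit gene with a promoter peak.
Psma1 (chr7:114276119-114276305, minus strand): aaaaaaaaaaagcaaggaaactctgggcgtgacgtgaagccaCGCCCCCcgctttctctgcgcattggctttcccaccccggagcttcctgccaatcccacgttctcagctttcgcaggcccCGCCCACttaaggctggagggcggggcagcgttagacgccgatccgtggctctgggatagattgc
Psmc4 (chr7:28050102-28050348, minus strand): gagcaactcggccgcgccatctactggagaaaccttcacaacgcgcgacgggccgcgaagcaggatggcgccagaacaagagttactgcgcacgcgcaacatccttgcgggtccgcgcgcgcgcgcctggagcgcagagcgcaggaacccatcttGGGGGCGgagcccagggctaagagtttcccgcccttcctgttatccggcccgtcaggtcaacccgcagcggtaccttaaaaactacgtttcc
Psmg1 (chr16:95990961-95991085, minus strand): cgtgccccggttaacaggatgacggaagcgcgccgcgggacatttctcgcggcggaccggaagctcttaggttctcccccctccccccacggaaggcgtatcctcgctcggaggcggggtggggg
Psmd4 (chr3:95042615-95042795, minus strand): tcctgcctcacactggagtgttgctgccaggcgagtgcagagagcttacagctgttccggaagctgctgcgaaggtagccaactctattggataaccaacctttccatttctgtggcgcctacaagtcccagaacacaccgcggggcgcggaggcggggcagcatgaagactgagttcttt
Psmb10 (chr8:105938445-105938638, minus strand): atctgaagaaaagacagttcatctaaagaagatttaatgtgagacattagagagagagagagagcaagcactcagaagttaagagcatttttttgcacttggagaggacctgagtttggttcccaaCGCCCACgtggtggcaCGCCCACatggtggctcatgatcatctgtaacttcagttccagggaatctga

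An EGR1 peak lay in the body or within 10 kb of a TSS at 28 of the 50 proteasome genes (56%, interval 42.3 to 68.8%), beside a background of 39.6% of all protein-coding genes. At 20 genes (40%, interval 27.6 to 53.8%) a peak lay within 1 kb of a TSS, beside 28.1% of all protein-coding genes, a share that the interval includes. In 22 genes (44%, interval 31.2 to 57.7%) the TSS was the protein-coding TSS nearest to a peak, beside 34.8%. The first share was 16.5 and the second 11.9 percentage points above that of the other protein-coding genes. With the gene body alone, without the 10 kb windows, the shares were 20% of proteasome genes and 23.9% of other genes.

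The excess was not seen among genes with CpG-rich promoters. The median CpG ratio of the promoters was 0.784 in proteasome genes and 0.556 in other genes, with a median GC content of 57% and 56%. CpG-rich promoters, where the observed/expected CpG ratio reached 0.6 and at least 50% of bases were G or C from 250 bp before to 50 bp after the TSS, were found at 37 of 50 proteasome genes (74%) and at 43.9% of other genes, and also at 69.2% of genes of ribosomal proteins and 62.8% of genes of respiratory chain subunits. Among genes with such a promoter, 15 of 37 proteasome genes (40.5%, interval 26.3 to 56.5%) and 47.7% of other genes had a peak within 1 kb. For peaks in the body or within 10 kb the shares were 56.8% and 59.4%. Among genes with a CpG-poor promoter the order was the opposite, with a peak within 1 kb at 5 of 13 proteasome genes (38.5%, interval 17.7 to 64.5%) and at 12.7% of other genes. These 5 genes were Psma3, Psmb10, Psmd3, Psmd4 and Psme2, with CpG ratios of 0.55, 0.249, 0.577, 0.508 and 0.484. In other genes the ratios reach down to 0, so the CpG-poor promoters of both sets were not matched in composition. Whether base composition sets the difference was not tested.

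**Figure D1:**
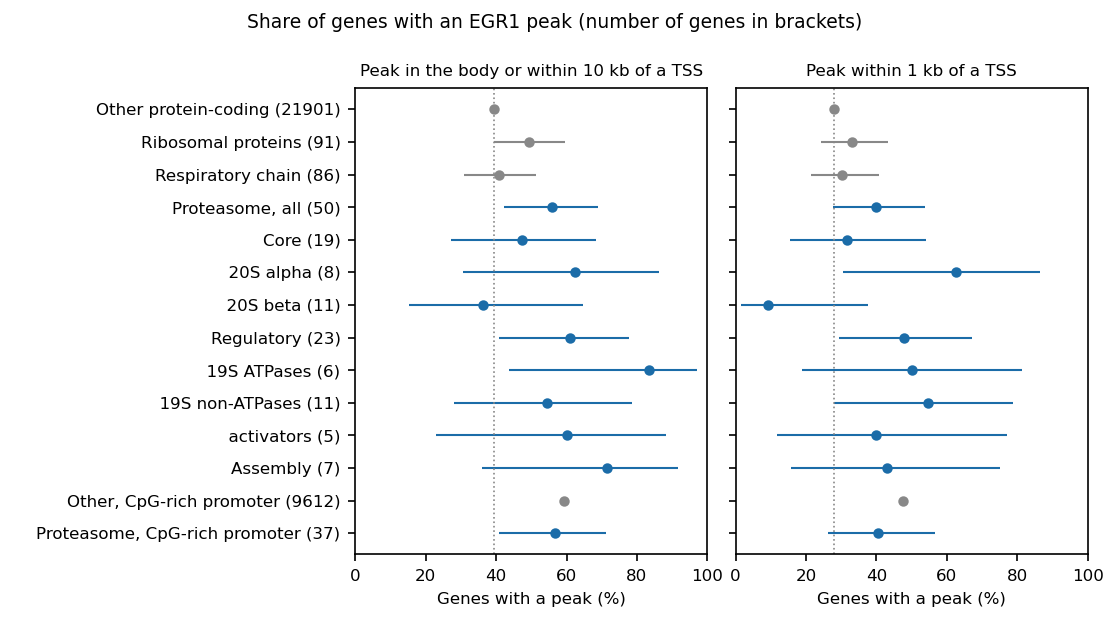
Share of genes with an EGR1 peak in the gene body or within 10 kb of a TSS (left) and within 1 kb of a TSS (right), in percent, with 95% Wilson intervals. Blue points are proteasome genes and their groups, grey points other genes, and the dotted line is the share of other protein-coding genes. The 20S alpha genes stood at 62.5% and the 20S beta genes at 9.09% within 1 kb, with intervals that overlap.

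Genes of other large housekeeping complexes were counted in the same way. A peak in the body or within 10 kb was found at 49.5% of genes of cytosolic ribosomal proteins and at 40.7% of genes of respiratory chain subunits, and 40.7% and 26.7% owned the TSS nearest to a peak. A peak within 1 kb was found at 30 of 91 ribosomal protein genes (33.0%) and at 26 of 86 respiratory chain genes (30.2%). With CpG-rich promoters alone, the shares were 36.5% and 35.2%, against 40.5% of the proteasome genes.

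Among the roles, peaks within 1 kb of a TSS were found at 6 of 19 core genes (31.6%, interval 15.4 to 54.0%), 11 of 23 regulatory genes (47.8%, interval 29.2 to 67.0%) and 3 of 7 assembly genes (42.9%, interval 15.8 to 75%), and these intervals overlapped. In the body or within 10 kb, peaks were found at 9 core genes (47.4%), 14 regulatory genes (60.9%) and 5 assembly genes (71.4%). With an IDR of 0.001 or less these became 6, 6 and 5 genes, so that the regulatory share became 26.1%, beside 28.9% of other protein-coding genes. Within the core, the alpha genes had a promoter peak in 5 of 8 cases (62.5%, interval 30.6 to 86.3%) and the beta genes in 1 of 11 (9.09%, interval 1.62 to 37.7%). CpG-rich promoters were common in both, at 7 of 8 alpha and 7 of 11 beta genes. Among these genes, 4 of 7 alpha and 0 of 7 beta genes had a peak within 1 kb. The intervals of all alpha and all beta genes overlap between 30.6 and 37.7%. That of the beta genes includes the 28.1% of all genes, and that of the alpha genes lies above it but includes the 47.7% of other genes with a CpG-rich promoter. Only 3 of 8 alpha genes (37.5%, interval 13.7 to 69.4%) owned the protein-coding TSS nearest to a peak, beside 34.8% of all protein-coding genes. The Psma2 and Psma7 peaks lay nearer to the TSS of a neighbour. By that count the core, regulatory and assembly shares were 21.1%, 56.5% and 71.4%.

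**Figure D2:**
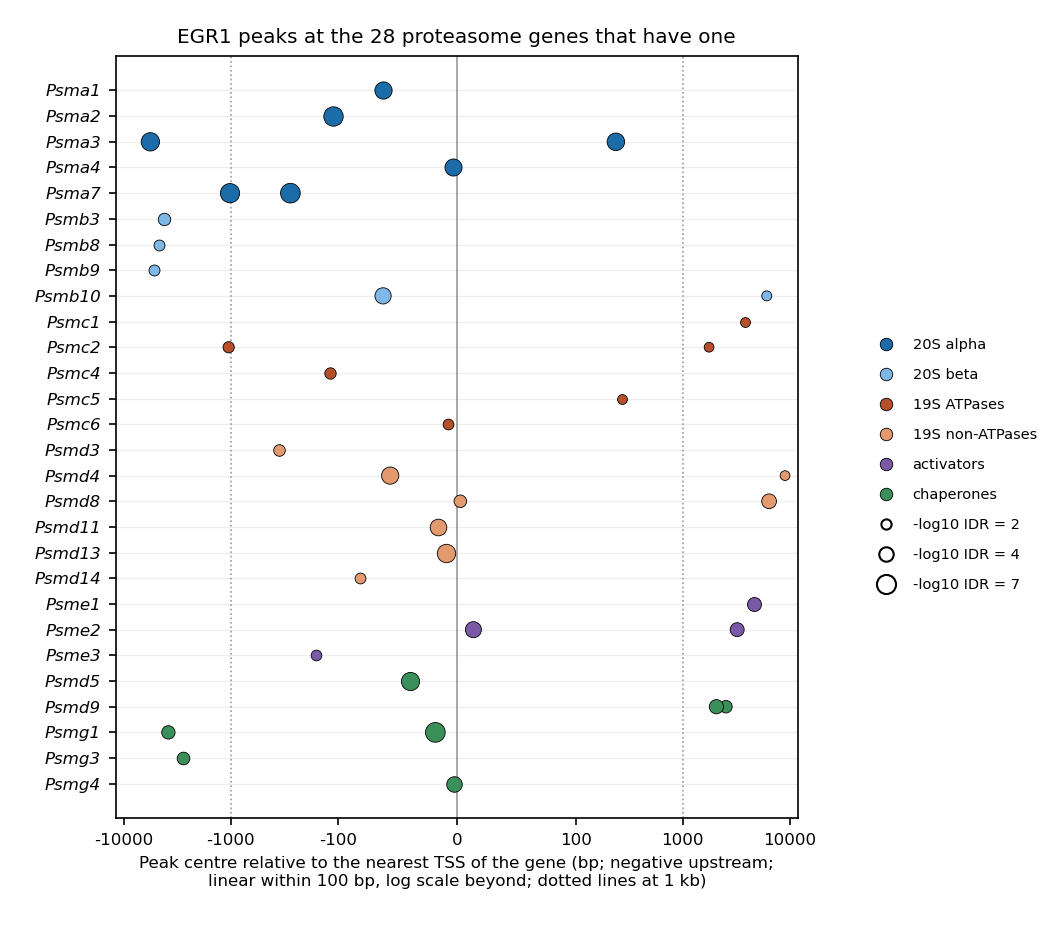
Position of the centre of each EGR1 peak relative to the nearest annotated TSS of the gene, in bp, for the 28 proteasome genes with a peak. Colours give the group and the area of a point gives its -log10 IDR. Of the peaks within 1 kb, 13 lie within 100 bp of the TSS.

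The alpha ring genes with a promoter peak were Psma1, Psma2, Psma3, Psma4 and Psma7, and all 5 peaks had an IDR of 2.47e-06 or less. Psma7 had the lowest, 3.8e-08 (rank 288 of all peaks), at chr2:180042618-180042804, with its centre 278 bp upstream of the TSS. This peak held the only long motif of the 20 promoter peaks, GCGGGGGCG, at its very centre (0 bp), as shown above. A second peak of Psma7, at chr2:180043401-180043505, lay 1020 bp upstream with an IDR of 7.99e-08 and held neither a long motif nor a short core. Psma7 shares its promoter region with Ss18l1, a gene on the other strand with a TSS 76 bp away that encodes a chromatin remodelling subunit with a role in dendrite growth. Both peaks lay in the body of Ss18l1 and nearer to its TSS, at 202 and 944 bp. To which of the genes they belong cannot be told apart from positions alone.

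Psma2 had a peak at chr13:14613076-14613185 with an IDR of 5.93e-08 (rank 517), 110 bp upstream of its TSS. It too has a head-to-head neighbour, the mitochondrial ribosomal protein gene Mrpl32, with TSSs 75 bp apart, and the centre of the peak was 35 bp from the TSS of Mrpl32. The Psma3 peak at chr12:70974829-70975086, in the first kilobase of the gene, lay in an intron 238 bp downstream of the TSS (IDR 1.25e-06), and a further peak at chr12:70968879-70969038 lay 5663 bp upstream (IDR 3.56e-07). The Psma1 peak at chr7:114276055-114276305 lay 62 bp upstream (IDR 2e-06) and held 2 short cores, on the strand opposite to the gene. The Psma4 peak at chr9:54950707-54950897 lay 3 bp upstream of the nearest annotated TSS, in an untranslated exon of the gene (IDR 2.47e-06). No peak was found at Psma5 and Psma6, whose products complete the ring, nor at Psma8, the testis-specific counterpart of Psma7, although all 3 had CpG-rich promoters.

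Of the 11 beta genes, Psmb10 alone had a promoter peak. No peak was listed in the body or within 10 kb of Psmb5, Psmb6 and Psmb7, the genes of the constitutive catalytic subunits, or of Psmb11, their thymic relative. None was listed at Psmb1, Psmb2 and Psmb4, which encode structural beta subunits. Of the interferon-induced genes, Psmb10 had a peak at chr8:105938375-105938638, 62 bp upstream of its TSS, with an IDR of 8.77e-06. Its promoter had a CpG ratio of 0.249, the lowest of the 20 genes with a promoter peak, with 46.3% G and C. The median ratio of the 50 genes was 0.784, and Psmb11, without a peak, had a ratio of 0.165. The peak held 2 short cores with 3 CpGs in all, as shown above, and 69.3% of its bases were masked as repeats in the RefSeq genome sequence. Only 30 of the 6636 peaks within 1 kb of a protein-coding TSS (0.452%) were masked over at least 50% of their bases. A second peak of Psmb10, 6125 bp downstream of the TSS, was nearest to the TSS of Ctrl, a chymotrypsin-like protease gene (IDR 0.012).

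The remaining peaks of beta genes lay near annotated TSSs of other genes. The peak counted for Psmb8 and Psmb9, at chr17:34192884-34193133 with an IDR of 0.00499, lay 4713 and 5244 bp upstream of their TSSs and 46 bp from a TSS of Tap1. Its centre was within the body of Tap1. Tap1 encodes a peptide transporter of antigen presentation, lies between both genes and has another TSS 38 bp from that of Psmb9. The peak held a GCGGGGGCG 30 bp from its centre. The peak counted for Psmb3, at chr11:97699034-97699283 (IDR 0.00113), lay 4241 bp upstream of Psmb3 and 226 bp from the TSS of Pcgf2, which encodes a Polycomb group protein.

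The genes of the 19S ATPases had peaks with high IDRs. Promoter peaks were found at Psmc4 (chr7:28050090-28050348, 118 bp upstream, IDR 0.00326), Psmc6 (chr14:45329690-45329953, 7 bp upstream, IDR 0.00622) and Psmc5 (chr11:106256293-106256556, in an intron 270 bp downstream, IDR 0.014). The Psmc5 TSS lies 75 bp from that of the rRNA methyltransferase gene Ftsj3 on the other strand. Psmc2 had a peak 1050 bp upstream at chr5:21784102-21784365 (IDR 0.00382), just outside the 1 kb limit. It holds the GCGGGGGCG shown above, 10 bp from its centre, and lies in the body of the head-to-head neighbour Dnajc2, a chaperone gene whose TSS is 32 bp from that of Psmc2. A second Psmc2 peak lay in an intron 1769 bp downstream of the TSS (IDR 0.0148). The Psmc1 peak lay 3826 bp downstream, past the end of the gene (IDR 0.0134), and no peak was listed at Psmc3. Every peak of an ATPase gene therefore had an IDR of 0.00326 or more. At a limit of 0.001 a peak remained at 0 of the 6 genes, beside 28.9% of other protein-coding genes.

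The genes of the 19S non-ATPases had promoter peaks in 6 of 11 cases (54.5%, interval 28 to 78.7%). Of all protein-coding genes 28.1% had one, a share just inside the interval. The IDRs of the 6 peaks covered a wide range. The lowest was that of Psmd13, a lid subunit gene, at chr7:140881877-140882041, 9 bp upstream (IDR 3e-07). Sirt3, a mitochondrial deacetylase gene, starts 99 bp away on the other strand, but the nearest TSS was that of Psmd13. Psmd4, which encodes a ubiquitin receptor, had a peak at chr3:95042546-95042795, 56 bp upstream, with an IDR of 2.12e-06 and no core in its sequence. Psmd11, which encodes a lid subunit, had a peak at chr11:80428468-80428731, 16 bp upstream (IDR 4.71e-06), also without a core. The peaks of the lid genes Psmd8 and Psmd3 were less reproducible, with an IDR of 0.000999 at chr7:29180539-29180802 (3 bp downstream) and of 0.00258 at chr11:98682077-98682326 (353 bp upstream). Psmd14, the gene of the deubiquitinase of the lid, had a peak at chr2:61711489-61711738, 81 bp upstream (IDR 0.0058). Psmd8 and Psmd4 also had distant peaks, 6438 and 9081 bp downstream of the TSS, and that of Psmd8 lay 420 bp from the TSS of Spred3. No peak was listed at Psmd1 and Psmd2, which encode the large scaffolds of the base, or at the lid genes Psmd6, Psmd7 and Psmd12.

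Of the activator genes, Psme2 had a promoter peak at chr14:55590942-55591205, 14 bp downstream of the TSS in an untranslated exon (IDR 1.09e-05). Psme1 and Psme2 encode the partners of an interferon-induced ring and lie near each other. They shared a peak at chr14:55585233-55585496 (IDR 0.00018), 4616 and 3240 bp downstream of their TSSs and 62 bp from the TSS of Emc9. Psme3, whose product forms a nuclear activator, had a peak at chr11:101316687-101316950, in an intron 159 bp upstream of an annotated alternative TSS (IDR 0.00656). No peak was listed at Psme4, Psme2b or the inhibitor gene Psmf1.

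The assembly genes included the lowest IDR of the module. The Psmg1 peak at chr16:95990872-95991085, 18 bp upstream of the TSS, had an IDR of 3.63e-08 and rank 270 of 12014, and 2 short cores outside the stretch shown above. Psmg1 and Psmg2 encode the chaperone pair that starts the alpha ring, and Psmg2 had no peak. Psmg4 had a peak 2 bp upstream of its TSS at chr13:34162831-34163094 (IDR 2.28e-05), while the peak of its partner gene Psmg3 lay 2807 bp upstream (IDR 0.000837). Of the chaperones of the 19S base, Psmd5 had a peak at chr2:34870926-34871077, 39 bp upstream of the TSS used here and within an intron of a longer transcript (IDR 4.41e-07). Psmd9 had peaks in introns 2071 and 2545 bp downstream of annotated TSSs (IDR 0.000132 and 0.00103), the latter 953 bp from the TSS of Hpd. Psmd10 had no peak, and neither had Psmc3ip. A second Psmg1 peak lay 3845 bp upstream (IDR 0.000368) and held 2 CpGs.

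**Figure D3:**
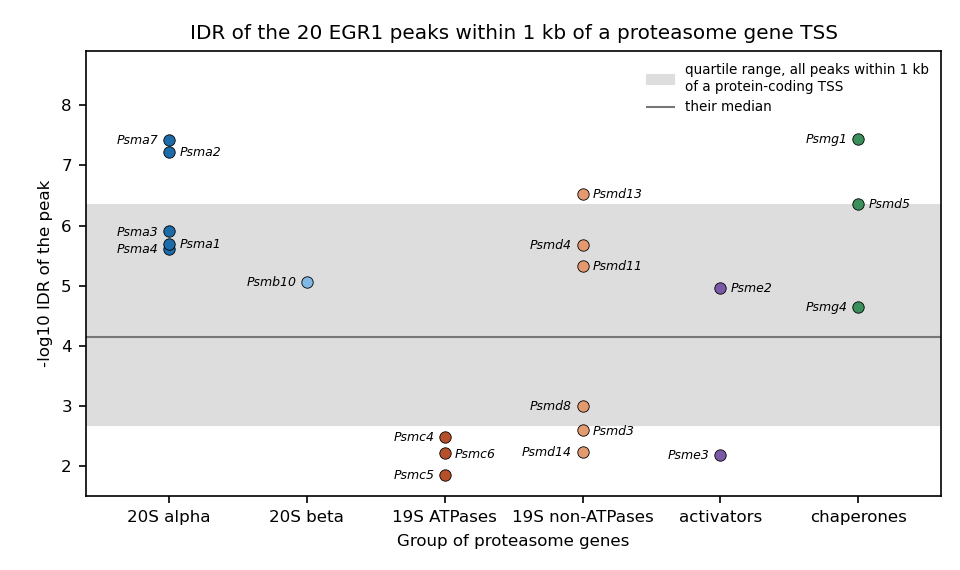
The -log10 IDR of the 20 peaks within 1 kb of a proteasome gene TSS, by group (1 point per peak, named by gene). The grey band is the quartile range and the line the median of all 6636 peaks within 1 kb of a protein-coding TSS. All 6 core peaks lie above that median and all 3 ATPase peaks below the lower quartile.

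The 20 promoter peaks had a median IDR of 6.74e-06 (95% interval of the median from order statistics 1.25e-06 to 0.00258), beside 7.11e-05 for all 6636 peaks within 1 kb of a protein-coding TSS, a value inside the interval. An IDR of 1e-05 or less was found for 11 of the 20 (55%) and for 40.7% of all promoter peaks. Of the peaks within 1 kb of ribosomal protein and respiratory chain genes, 65.6% of 32 and 32.3% of 31 reached that limit. All 6 core peaks reached it, but only 3 of 11 regulatory peaks did, and 2 of 3 assembly peaks. The 6 core peaks lay between 3.8e-08 and 8.77e-06, and the 3 ATPase peaks between 0.00326 and 0.014, so the values of these groups, which were set side by side after they were seen, did not overlap. The regulatory peaks as a whole ran from 3e-07 to 0.014 and overlapped the core peaks. The 15 peaks farther than 1 kb from a proteasome gene TSS had a median IDR of 0.00103. IDRs carry no error of their own, and these groups were not tested against each other.

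The peaks within 1 kb had a median distance of 59 bp to the nearest annotated TSS of the gene, with 13 of 20 within 100 bp and 17 within 250 bp. Their centre was upstream of the TSS at 16 genes and downstream at 4. A peak within 250 bp was found at 34% of proteasome genes and 22.1% of other genes, and within 1 kb at 40% and 28.1%. Median distances and sides for other genes are not reported here. The nearest protein-coding TSS was that of the proteasome gene for 18 of the 20, the exceptions being Psma2 and Psma7, and for 25 of all 35 different peaks. Counting only peaks within 1 kb that were nearest to the gene's own TSS, 36% of proteasome genes and 25.4% of other genes had a peak, in place of 40% and 28.1%. Head-to-head neighbours with a TSS within 1 kb were found at 9 proteasome genes (18%) and at 9.09% of other genes, or at 18.9% and 16.8% of those with a CpG-rich promoter. Of the 9 genes, 5 had a peak within 1 kb (Psma2, Psma7, Psmc5, Psmd13 and Psme2) and 4 did not (Psmb9, Psmc2, Psmd10 and Psmg2). These are 55.6% of the genes with such a neighbour, and 15 of the 41 proteasome genes without one had a peak (36.6%). In the other protein-coding genes the shares were 48.6% with a neighbour and 26% without. Among other genes with a CpG-rich promoter they were closer, at 52.2% and 46.7%. Among proteasome genes with such a promoter they were 4 of 7 (57.1%) and 11 of 30 (36.7%).

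The long motif was rare in these peaks. It was found in 1 of 20 promoter peaks (5%, interval 0.888 to 23.6%), beside 23.1% of all peaks within 1 kb of a protein-coding TSS, a share inside the interval. Among promoter peaks with an IDR of 1e-05 or less, 1 of 11 at proteasome genes (9.09%, interval 1.62 to 37.7%) and 33.6% of 2703 in all held it. Over all 35 peaks of proteasome genes the share was 8.57% (3 peaks), beside 16.6% of all peaks. Each of the 3 sites was a GCGGGGGCG, and GCGTGGGCG did not occur. The short cores GTGGGCG and GGGGGCG, which are contained in the long forms, were found in 15 of 20 promoter peaks (75%) and in 73.9% of all promoter peaks. A missing match says only that these letters are not in the peak.

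**Figure D4:**
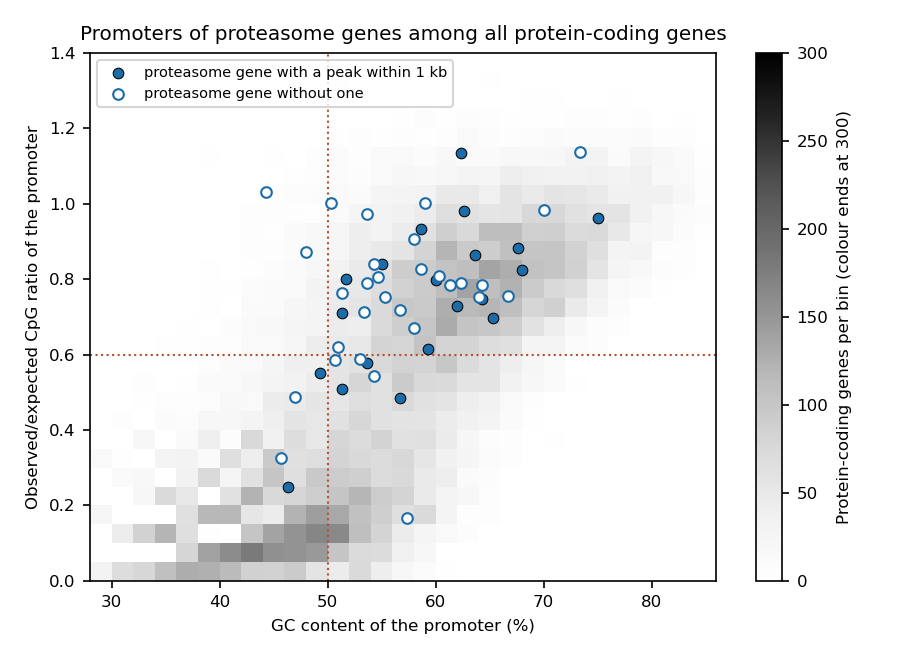
Observed/expected CpG ratio against GC content (%) of the promoter, from 250 bp before to 50 bp after the TSS. Grey squares count all protein-coding genes, filled points are the 20 proteasome genes with a peak within 1 kb, open points the 30 without, and dotted lines mark the limits of CpG-rich promoters. Both kinds of proteasome genes spread over the same range, and Psmb10 is the filled point with the lowest ratio.

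From 250 bp before to 50 bp after the TSS, proteasome genes with and without a promoter peak had alike CpG ratios. The GC content was higher with a peak. The median CpG ratio was 0.772 in the 20 genes with a peak within 1 kb and 0.784 in the 30 without, and 75% and 73.3% of the promoters were CpG-rich. The median GC content was 59.7% with a peak and 55% without. In the other protein-coding genes the medians of the ratio were farther apart, at 0.785 with a peak and 0.384 without. Their median GC content was 63.3% with a peak and 52.7% without.

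Short sequences that other factors read were counted in the same 300 bases of each promoter, on both strands. CCGGAAG, a core of ETS family sites, was found at 18 of 50 proteasome genes (36%) and at 11.1% of other genes. It was found at 13 of 23 regulatory, 2 of 19 core and 2 of 7 assembly genes. Among other complexes it was found at 26 of 91 genes of ribosomal proteins (28.6%) and 15 of 86 respiratory chain genes (17.4%). CCGGAAG holds a CpG, and its shares among CpG-rich promoters alone are not reported here. With and without a promoter peak it was found at 5 of 20 and 13 of 30 proteasome genes, and at 16.6% and 8.99% of other genes. These groups were not tested against each other. GGGCGG, a core of SP1 sites that can overlap the last bases of GCGGGGGCG, was found at 60% of proteasome genes and 45.4% of others. It also holds a CpG, and its shares among CpG-rich promoters alone are not reported here. With and without a promoter peak it was found at 70% and 53.3% of proteasome genes, and at 73.4% and 34.5% of other genes. CCAAT, the letters of the NF-Y box, was found at 36% of proteasome genes and 38.6% of others. TGACNNNGC, a core of the antioxidant response element through which NFE2L1 and NFE2L2 induce proteasome genes, was found at 7 of 50 (14%) and at 12.8% of other genes. It was found at 1 of the 20 proteasome genes with a promoter peak, Psmc6, and at 6 of the 30 without. In other genes these shares were 14.2% and 12.2%. TATAAA was found at 5 of 50 (10%) and at 12.6%, and none of the 5 (Psma8, Psmb1, Psmb4, Psmd1 and Psmd6) had a peak within 1 kb, as had 359 of the 2761 other genes with these letters. The long EGR1 motif was in 0 of 50 of these windows and in 4.69% of those of other genes, since that of Psma7 lies farther upstream. It was likewise in 0 of 86 windows of respiratory chain genes, and in 6 of 91 of ribosomal protein genes (6.59%).

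In a list of 25 further genes of the pathway, a peak lay in the body or within 10 kb at 13 (52%, interval 33.5 to 70.0%) and within 1 kb at 11 (44%, interval 26.7 to 62.9%). The intervals include the 39.6% and 28.1% of all protein-coding genes. The lowest IDR was that of Pomp, the maturation factor of the 20S core, with 2e-08 at 34 bp from a TSS. The long motif was in the peaks of Ubb, Zfand5, Rad23b and Nfe2l2 with the lowest IDR of each gene. Ubb, a ubiquitin gene, had an IDR of 6.92e-08, and Rps27a, which encodes ubiquitin fused to a ribosomal protein, had one of 3.54e-06. Zfand5, which encodes an activator of the 26S proteasome, had an IDR of 1.4e-07, Usp14, a deubiquitinase of the proteasome, 2.59e-07, and Akirin2, a factor in the nuclear import of proteasomes, 3.42e-07. The genes of the transcription factors of proteasome genes both had promoter peaks, with an IDR of 7.3e-05 for Nfe2l1 and of 0.00499 for Nfe2l2. Ngly1, Ddi2 and Vcp, whose products activate NFE2L1, had none. Rad23b, a shuttle for ubiquitin-tagged proteins, had an IDR of 0.00214 and Uba1, the ubiquitin-activating enzyme, of 0.0121. The subunit genes Adrm1 and Sem1, whose symbols lie outside the rule, had no peak.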

How the data were processed

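EGR1 ChIP-seq of mouse frontal cortex was analysed as 1 deposited peak list, in which the authors merged 2 replicates. The deposited values are IDRs, which describe how alike peaks rank in both replicates and are not p-values. Per the paper's methods the authors mapped reads to mm10, called peaks with SPP and kept peaks with an IDR of 2% or less. The submitters' processing notes name Bowtie2 2.2.9 and bedtools 2.26.0. Depth is unknown.

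Starts were taken as counted from 0, as BED files do, because the sources used here do not state it. Peaks on assembled chromosomes (11938) were joined to GENCODE M21 genes on the GRCm38.p6 sequence of RefSeq by their centres. The 1 TSS per gene for promoters was that of the best-supported principal protein-coding transcript. Distances are to the nearest annotated TSS. Ribosomal and respiratory chain genes were chosen by symbol, without kinases and assembly factors. Paaf1 of the pathway list was not found in the annotation, and single values of some genes of that list are not reported here.

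The rule takes members by symbol and uses no measured value, but this gene family and the lists were chosen with earlier results of these data known. All members are accounted for. Full values are given for those with a peak within 1 kb of a TSS or with distant peaks only, the catalytic beta genes are named whatever they show, and so are Psma7 and Psma8. With 1 list no test was made. Alternatives varied the windows, IDR limit, TSS choice, motif and promoter class. Python 3.11.15, numpy 2.4.6, pandas 2.3.3, scipy 1.17.1, pysam 0.24.0 and matplotlib 3.10.9 were used, and the scripts were tested on simulated data. The input DNA was not analysed here.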

Additional observations from a re-analysis of the deposited data

How the results depend on the processing

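Of 72 values under alternative settings, 61 kept their direction and stayed within the spread of the reported value. The share of proteasome genes with a peak in the body or within 10 kb (56%) became 20% with the gene body only, 34% with an IDR of 0.001 or less and 32% with the 50% of peaks with the lowest IDR. With those last peaks the share within 1 kb (40%) became 26%, beside 18.1% of other genes. At an IDR of 0.001 or less, 26.1% of regulatory genes had a peak (60.9% as reported) and 28% of proteasome genes owned the nearest TSS (44%). The share of other genes that owned the nearest TSS at that limit is not reported here. The motif share (8.57%) became 0% with GCGTGGGCG only and 68.6% with the short cores. With an IDR of 0.001 or less and with the 50% of peaks with the lowest IDR, 28.9% and 25.8% of other genes had a peak in the body or within 10 kb, so the excess over them shrank from 16.5 to 5.07 and 6.23 percentage points. The difference turned from 16.5 to -3.86 percentage points with the gene body only and to -2.63 with CpG-rich promoters only, and within 1 kb from 11.9 to -7.13 with CpG-rich promoters only. The comparisons among CpG-rich promoters and of peaks nearest to the gene's own TSS were chosen after seeing the data. The cause of these changes was not tested. No paired analysis was possible because both replicates are merged in 1 list, and for the same reason no replicate could be left out. Depth limits no value in a known way, since the list gives none.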
